A study of Mus musculus with 18 samples.

Results

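The 67 genes described here are the rows of an islet expression table whose symbol begins with Ube2, the ubiquitin-conjugating enzymes, or with Usp followed by a digit, the ubiquitin-specific proteases, leaving out the Y-linked Usp9y. The rule uses the symbol alone and no measured value, though earlier results of these data were known when it was set. They are 67 of the 10509 genes listed. The Ube2 symbols number 26 and the Usp symbols 41. A few symbols match without naming such an enzyme: Usp6nl is a GTPase-activating protein for Rab proteins, Ube2cbp is a ubiquitin ligase that binds a conjugating enzyme, and Usp39 is a splicing factor that lacks the protease's active residues. Ube2l6, the conjugating enzyme for the interferon-induced modifier ISG15, was not among the listed genes and is not analysed here.

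Ubiquitin is attached to proteins in a relay: an activating enzyme (E1) passes it to a conjugating enzyme (E2, the Ube2 genes), and a ligase (E3) directs it from there to a substrate. Deubiquitinating enzymes, of which the Usp proteases are the largest family, take it off again. The relay marks misfolded proteins for the proteasome, including those pulled out of the endoplasmic reticulum, an organelle that carries a heavy load in insulin-secreting beta cells. Related relays carry SUMO, NEDD8 and ISG15, and Usp18 removes ISG15 from proteins and also dampens signalling from the type I interferon receptor.

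Pancreatic islets were taken from 10 mice labelled as beta-cell knockouts of NRK1 (KO), made with Ins1Cre, a Cre driver at the insulin 1 gene that is active in beta cells, and from 8 mice labelled NRK1 wild type (WT). NRK1, encoded by Nmrk1, phosphorylates nicotinamide riboside on the salvage route to NAD. Both groups ate a high-fat diet for 12 weeks, the sample titles of both carry the Ins1Cre name, and the labels do not say whether WT mice carried Cre, nor give an age. Each mouse gave 1 library of 3' end mRNA reads, and the question is how islet transcripts differ without the kinase in beta cells. Values are log2 of CPM, reads scaled to a common library size, plus a floor of 0.562 CPM, so a gene with no read stands at -0.83. A transcript gives reads from its 3' end whatever its length, so levels are compared between genes without a length correction.

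Libraries held 2831137 to 4303680 reads over the listed genes, and 1 read was worth 0.238 to 0.411 CPM. The number of listed genes without a read was 33 to 346 per library, and it was highest in WT 7 with 346, KO 2 with 320 and KO 3 with 227. Nmrk1 averaged 1.99 ± 0.49 (SD, n = 10) in KO and 2.01 ± 0.92 (SD, n = 8) in WT islets on the log2 scale, from 3 to 36 reads, and reads from its 3' end do not check a deletion elsewhere in the gene. Of 9 beta-cell markers 8 were listed, none of them at 0 in any library. Islets also hold alpha, delta, endothelial and immune cells, and in such bulk samples fewer cells of a type and less RNA per cell cannot be told apart.

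Interferon-induced genes often carry a binding element for interferon-activated factors next to their start, and the letters GAAANNGAAA, its core, were searched on both strands of RefSeq promoters (GRCm38.p6, 250 bases before to 50 bases after each gene's start). The element was found in 1131 of 32851 promoters, or 3.44%, in 17 of the 35 interferon and ISG15 pathway genes with an entry, or 48.6%, and in 1 of the 50 conjugating and deubiquitinating enzyme genes with an entry, or 2%. A match is a run of letters and not a measured site. Usp18 had no entry among these promoters. The first sequence below is the promoter of Isg15, whose protein is the substrate of Usp18, and the second is that of Usp49, the 1 gene of the 50 with a match. Capitals mark the matches.
Isg15, chr4:156200769-156201068, minus strand: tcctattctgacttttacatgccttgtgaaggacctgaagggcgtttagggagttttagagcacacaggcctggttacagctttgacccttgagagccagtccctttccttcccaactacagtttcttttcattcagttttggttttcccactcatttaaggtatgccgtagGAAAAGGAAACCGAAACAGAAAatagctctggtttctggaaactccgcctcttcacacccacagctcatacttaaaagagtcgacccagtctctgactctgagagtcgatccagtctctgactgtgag
Usp49, chr17:47630440-47630739, plus strand: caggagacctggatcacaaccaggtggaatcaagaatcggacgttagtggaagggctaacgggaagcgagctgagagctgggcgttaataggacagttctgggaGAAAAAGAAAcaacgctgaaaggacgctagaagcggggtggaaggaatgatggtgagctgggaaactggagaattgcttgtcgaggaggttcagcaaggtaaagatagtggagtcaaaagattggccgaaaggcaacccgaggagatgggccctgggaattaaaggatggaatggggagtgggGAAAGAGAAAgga
In Isg15 the capitals hold 3 overlapping matches, GAAAAGGAAA, GAAACCGAAA and GAAACAGAAA, that begin 78, 72 and 66 bases before the annotated start. In Usp49 the first of 2 matches, GAAAAAGAAA, begins 146 bases before the start, and the second, GAAAGAGAAA, lies after it.

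Conjugating and deubiquitinating enzyme genes were expressed somewhat above the middle of the table. Their median level was 4.67 on the log2 scale, against 4.10 over all 10509 genes, and 44 of 67, or 65.7%, stood at or above the median gene. By family these were 16 of 26 Ube2 and 28 of 41 Usp symbols, with median levels of 4.54 and 4.74. The depth behind them was modest: the median gene of the 67 had 91 reads per library, 31 had a median of 100 reads or more, and 6 had no read in at least 1 library.

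**Figure D1:**
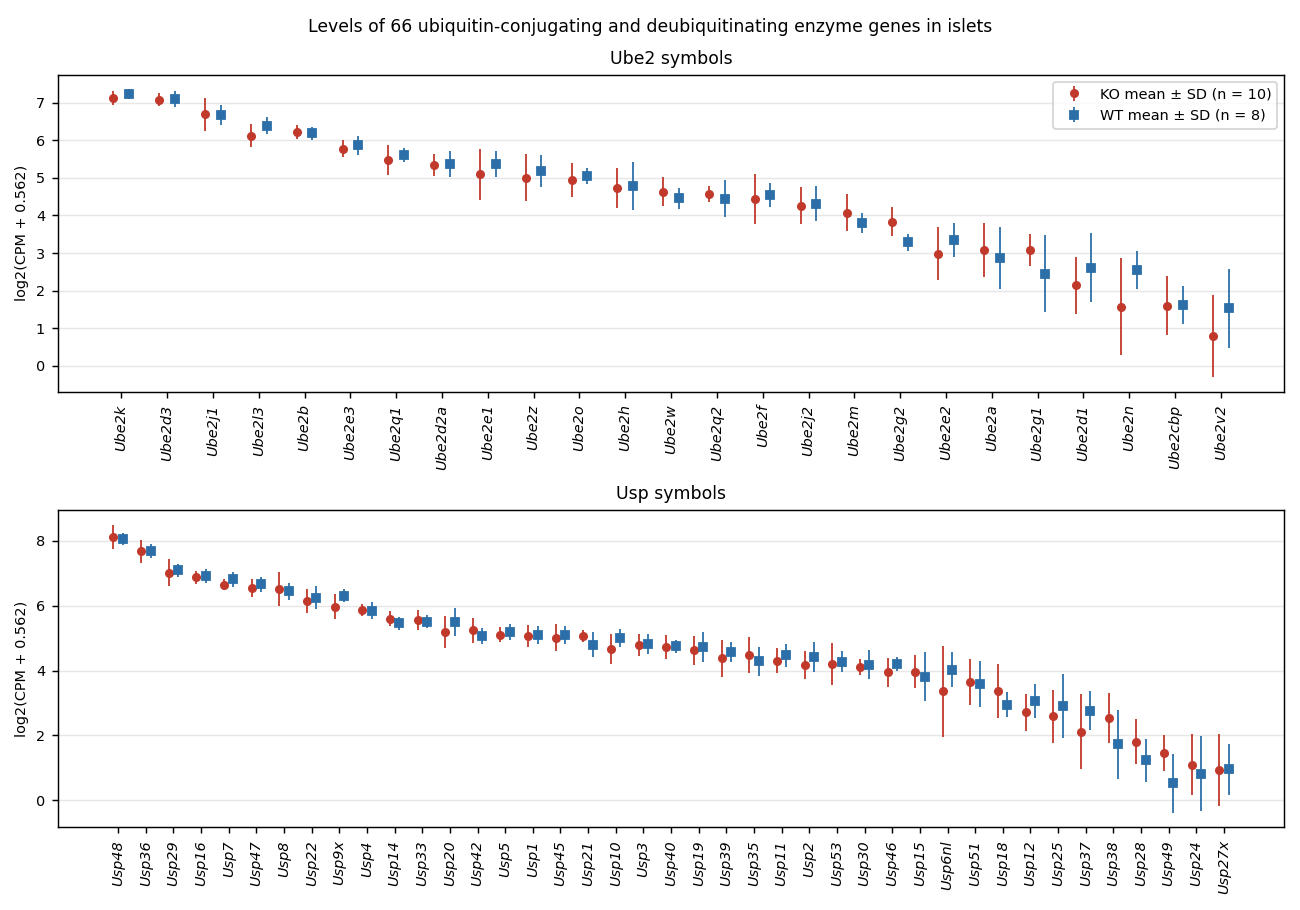
Level of 66 of the 67 genes in KO islets (circles, n = 10) and WT islets (squares, n = 8) as the mean ± SD on the log2(CPM + 0.562) scale, with Ube2 symbols above and Usp symbols below, each ordered by mean level. Means run between about 1 and 8, with Usp48 highest at 8.10 and Usp27x lowest at 0.94, and the SD bars lengthen toward the low end.

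Usp48 (chromosome 4, 137594120 to 137658537, GRCm38), a nuclear protease that acts on histone H2A, had the highest mean level, 8.10, and was the 217th gene of the table. Its lowest, median and highest values were 7.71, 7.95 and 8.90 in KO islets, against 7.73, 8.08 and 8.34 in WT islets, and the groups overlapped over nearly their whole range. Usp36, a nucleolar protease needed for ribosome production, followed at 7.68, Usp29 at 7.06, the histone H2A protease Usp16 at 6.90, and Usp7, which acts on MDM2 and p53, at 6.72. At the other end stood Usp27x at 0.94, Usp24 at 0.97 and Usp49 at 1.04, each with a median under 10 reads per library.

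Among the Ube2 genes, Ube2k (chromosome 5, 65537245 to 65598989), which builds Lys48-linked chains, was highest at 7.17 and was the 629th gene of the table. Its lowest, median and highest values were 6.83, 7.12 and 7.41 in KO islets, against 6.98, 7.27 and 7.41 in WT islets, again overlapping. Close behind came Ube2d3 at 7.09, a general partner of many ligases, then Ube2j1 at 6.68, the membrane-bound conjugating enzyme of endoplasmic reticulum degradation, Ube2l3 at 6.24 and Ube2b at 6.20. Ube2d3 has the near-identical relatives Ube2d1 and Ube2d2a, at 2.36 and 5.36, and Ube2e1, Ube2e2 and Ube2e3 resemble each other likewise, at 5.21, 3.15 and 5.81. The sources used here do not say how reads matching several of these were assigned, so the split within each trio is uncertain. The lowest were Ube2v2 at 1.12, Ube2cbp at 1.61 and Ube2n at 2.01. Ube2n and Ube2v2 form the pair of proteins that builds Lys63-linked chains, and the 3' end reads thus gave few reads for either.

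Within genotypes these genes varied slightly less than the table as a whole. Their median SD within groups was 0.39 on the log2 scale, against 0.50 over all genes, but higher genes vary less. Set against the SD of genes of like level, the median ratio was 0.96, and 38 of 67, or 56.7%, lay under 1. The steadiest for their level were Ube2k with a ratio of 0.52, Ube2b with 0.56 and Ube2d3 with 0.58, followed by Usp7 with 0.62. The most variable for its level was Usp6nl, with an SD of 1.12 and a ratio of 2.14. KO 2 weighs on this value: it had 1 Usp6nl read and stood at -0.09, where the nearest KO library had 2.62. The ratio without KO 2 was not computed. Next came Ube2e1 with 1.57, Ube2z, a conjugating enzyme charged by the second ubiquitin activator Uba6, with 1.48, and Ube2h with 1.43. In absolute terms the largest SDs after Usp6nl belonged to Ube2v2 at 1.08, Usp24 at 1.03, Ube2n at 1.02 and Usp27x at 0.99, all genes of few reads.

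No conjugating or deubiquitinating enzyme gene differed between KO and WT islets past the test. With limma over all 10509 genes and a Benjamini-Hochberg adjusted p under 0.05 as the threshold, 0 of 67 were called, where the share called over the table was 0%. At an unadjusted p under 0.05, limma gave 4 of 67, or 5.97%, near the 5.40% of all genes. These were 2 higher in KO islets, against 3.18% of all genes, and 2 lower, against 2.22%. Limma voom on recovered reads also gave 4 and called 0. The log2 difference was below 0 in 43 of 67, or 64.2%, against 50.4% of all genes, and above 0 in 24, against 49.6%, with a median of -0.05 against -0.00. Titles carry animal numbers, and 12 libraries fall into runs of neighbouring numbers with both genotypes. In these, with the run as a term, 34 of 67, or 50.7%, were below 0, against 51.8% of all genes. The 95% interval of the difference lay within a 2-fold change either way for 55 of 67 genes, or 82.1%, against 77.1% of all genes.

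**Figure D2:**
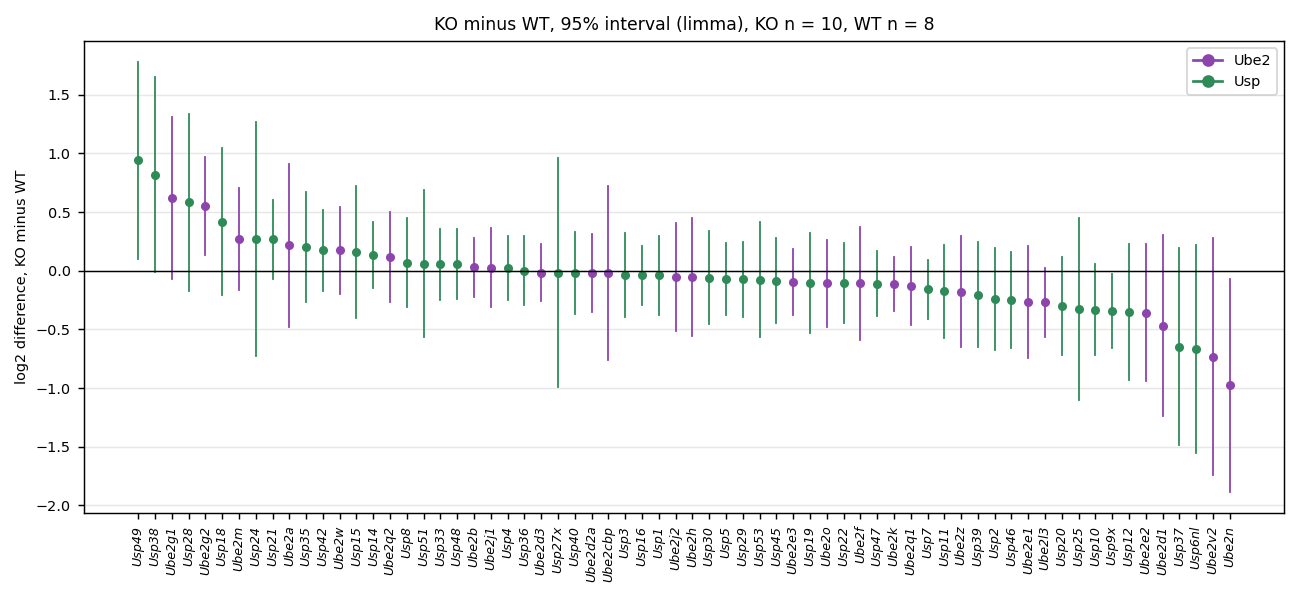
Log2 difference, KO minus WT, of 66 of the 67 genes with its 95% interval from limma (KO n = 10, WT n = 8), ordered by size and coloured by family. Estimates run between 0.94 for Usp49 and -0.98 for Ube2n, and most intervals cross 0.

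The conjugating enzyme of endoplasmic reticulum degradation Ube2g2 (chromosome 10, 77622321 to 77645990) had the smallest p of the 67. Its lowest, median and highest values were 3.43, 3.85 and 4.43 in KO islets, against 3.01, 3.27 and 3.68 in WT islets. All 10 KO libraries stood above the WT median and 6 above the highest WT library, while 5 WT libraries stood below the lowest KO library. The means were 3.84 ± 0.38 (SD, n = 10) in KO and 3.28 ± 0.24 (SD, n = 8) in WT, from 25 to 82 reads per library. The log2 difference was 0.55, SE 0.20, with 0.13 to 0.97 as its 95% interval (limma unadjusted p = 0.0118, adjusted p = 0.878). It stayed between 0.48 and 0.62 in each alternative, including each library left out in turn.

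The 4 other enzymes of endoplasmic reticulum degradation gave no common direction. Ube2g1, the closest relative of Ube2g2, averaged 3.08 ± 0.43 (SD, n = 10) in KO and 2.46 ± 1.02 (SD, n = 8) in WT islets, a log2 difference of 0.62 with an unadjusted p of 0.0751 in limma. That difference was 0.39 without WT 7 and 0.24 with the run of animal numbers as a term. Ube2j1 differed by 0.03, Ube2j2 by -0.05 and Ube2k by -0.11. Of 17 listed genes for other parts of this degradation route, such as its ligases and extraction factors, 10 had a higher and 7 a lower value in KO islets and limma called 0. None of the 17 had an unadjusted p under 0.05. The ligase Marchf6 differed by 0.15, Faf2 by -0.25 and Nploc4 by -0.35, the last encoding a cofactor of the extracting ATPase p97. Nploc4 stood at -0.22 without KO 2, KO 3 and WT 7, Faf2 at -0.16 with the run as a term, and Marchf6 at 0.087 without WT 8 and 0.055 with the run as a term.

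**Figure D3:**
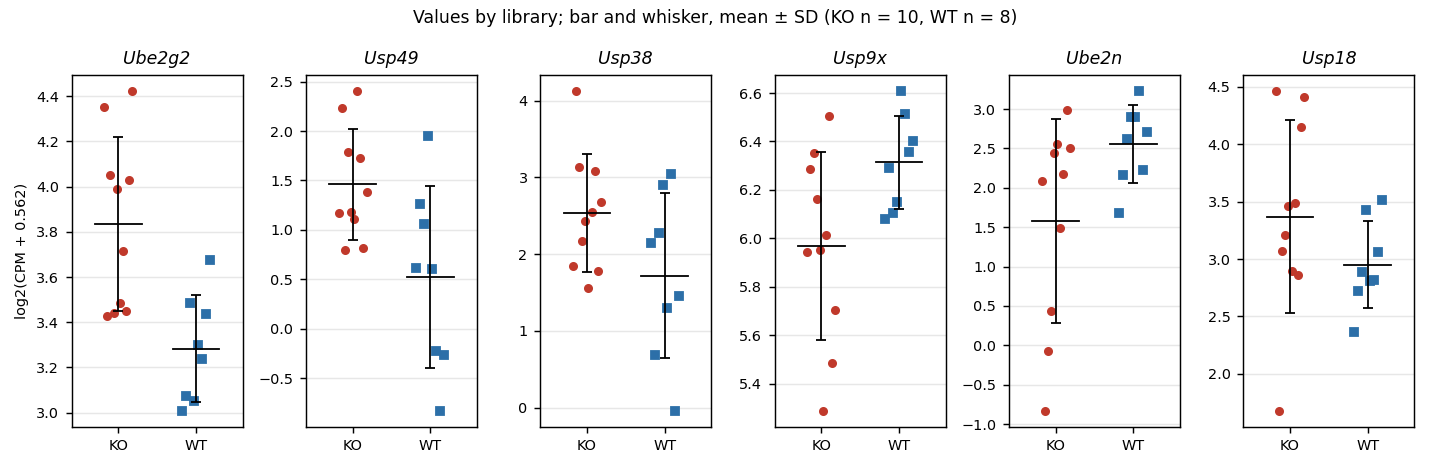
Values of 6 genes by library on the log2(CPM + 0.562) scale, KO islets as circles (n = 10) left of WT islets as squares (n = 8), with the mean ± SD. Ube2g2 has 6 KO libraries above the highest WT library, Usp9x has 6 KO libraries below the lowest WT library, and in Ube2n 3 KO libraries with at most 3 reads lie far below the rest.

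The Lys63 pair had lower values in KO islets, resting on few reads. Ube2n (chromosome 10, 95515162 to 95545658) had 11, 0, 1, 3, 20, 20, 8, 13, 31 and 20 reads in KO 1 to KO 10 and 11, 15, 22, 25, 29, 30, 10 and 22 reads in WT 1 to WT 8. The KO values were low in KO 2, KO 3 and KO 4, and the other 7 KO libraries ran through the WT range or just under it. Means were 1.58 ± 1.29 (SD, n = 10) in KO and 2.55 ± 0.50 (SD, n = 8) in WT, a log2 difference of -0.98 with an SE of 0.44 (limma unadjusted p = 0.0354, adjusted p = 0.925). It was -0.71 without KO 2, -0.52 without KO 2, KO 3 and WT 7, and -1.57 with the run of animal numbers as a term. Its partner Ube2v2 averaged 0.80 ± 1.10 (SD, n = 10) in KO and 1.53 ± 1.04 (SD, n = 8) in WT islets, from 0 to 21 reads, with 3 libraries at 0. Its log2 difference of -0.73 (limma unadjusted p = 0.149) was -1.07 without WT 7 and -0.45 without KO 7 and KO 8. With the run as a term it was -1.45 (limma unadjusted p = 0.0123). The runs leave out WT 7, with 0 Ube2v2 reads, and keep KO 2, KO 3 and KO 8, with 1, 0 and 0. For Ube2n, too, the fit with the run as a term keeps KO 2 and KO 3.

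Of 13 listed enzymes that serve many ligases or form the Ube2d, Ube2e, Ube2q and related groups, 11 had a lower and 2 a higher value in KO islets, with a median difference of -0.11. A value below 0 was also held by 50.4% of all genes, none of the 13 had an unadjusted p under 0.05, and the larger share of lower values over the 67 genes was not seen with the run as a term. Ube2d1 differed by -0.47, Ube2e2 by -0.36 and Ube2e1 by -0.27, the 2 higher ones were Ube2w, which modifies protein amino termini, at 0.17 and Ube2q2 at 0.12, and Ube2z, Ube2q1, Ube2o, Ube2e3, Ube2h, Ube2d2a and Ube2d3 lay between -0.18 and -0.02. Ube2l3 (chromosome 16, 17152015 to 17201512), a partner of HECT and RBR ligases including parkin, had the smallest p of them. It averaged 6.12 ± 0.31 (SD, n = 10) in KO and 6.39 ± 0.23 (SD, n = 8) in WT islets, with 8 of 10 KO libraries below the WT median. The log2 difference was -0.27 (limma unadjusted p = 0.0700, adjusted p = 0.945), and it was -0.15 without KO 2, KO 3 and WT 7. Of the enzymes for NEDD8, Ube2m averaged 4.08 ± 0.49 (SD, n = 10) in KO and 3.81 ± 0.27 (SD, n = 8) in WT islets, a log2 difference of 0.27 (limma unadjusted p = 0.210), with 5 of 10 KO libraries above the highest WT library, and Ube2f differed by -0.11. Ube2a and Ube2b, which modify histone H2B and the replication clamp PCNA, differed by 0.22 and 0.03.

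Among the proteases, Usp9x (chromosome X, 13070982 to 13173328), a broad-acting enzyme of membrane traffic and protein stability, had the smallest p in the lower direction. Its lowest, median and highest values were 5.29, 5.98 and 6.51 in KO islets, against 6.08, 6.32 and 6.61 in WT islets. Of the 10 KO libraries, 8 stood below the WT median and 6 below the lowest WT library. Means were 5.97 ± 0.39 (SD, n = 10) in KO and 6.31 ± 0.19 (SD, n = 8) in WT, a log2 difference of -0.34 with an SE of 0.15 (limma unadjusted p = 0.0332, adjusted p = 0.925), and -0.16 with the run of animal numbers as a term. Of the 8 listed proteins of membranes and organelles, 6 had a lower value in KO islets, among them Usp10 at -0.33, Usp20 at -0.30 and Usp6nl at -0.67. Usp10 stood at 0.04 with the run as a term, Usp20 at -0.06 without KO 2, KO 3 and WT 7, and Usp6nl at -0.28 without KO 2. The mitochondrial protease Usp30 differed by -0.06 and Usp19 by -0.10, and the 2 higher ones were Usp8 at 0.07 and Usp33 at 0.05.

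Chromatin and DNA proteases split evenly, 7 higher and 7 lower of 14 listed, with a median difference of -0.01. Usp49 (chromosome 17, 47630690 to 47686739), a histone H2B protease, had 5, 11, 3, 11, 7, 6, 17, 9, 5 and 8 reads in KO 1 to KO 10 and 4, 7, 6, 12, 4, 1, 0 and 1 reads in WT 1 to WT 8. The KO libraries were all above the WT median and 5 WT libraries lay below the lowest KO library, of which WT 7 had no read. Its means were 1.46 ± 0.56 (SD, n = 10) in KO and 0.52 ± 0.92 (SD, n = 8) in WT, a log2 difference of 0.94 with an SE of 0.41 (limma unadjusted p = 0.0292, adjusted p = 0.925). The difference was 0.75 without WT 7 and 0.52 with the run as a term. Usp21 differed by 0.27, and by 0.15 without WT 7. Usp28 differed by 0.58, and by 0.13 with the run as a term. Usp37, a protease of the cell cycle, differed by -0.65 and by -0.32 without KO 2. Usp7 differed by -0.16, Usp22, the histone protease of the SAGA complex, by -0.11 and Usp42 by 0.17, while Usp3, Usp16, Usp36, Usp48, Usp51 and Usp27x lay between -0.04 and 0.06.

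Usp38 averaged 2.54 ± 0.77 (SD, n = 10) in KO and 1.72 ± 1.07 (SD, n = 8) in WT islets, a log2 difference of 0.82 (limma unadjusted p = 0.0532) that was 0.29 without KO 2, KO 3 and WT 7. The 3 proteases activated by the partner protein WDR48, Usp1, Usp12 and Usp46, differed by -0.04, -0.35 and -0.25. The related proteases Usp4, Usp11 and Usp15 differed by 0.02, -0.17 and 0.16. Usp14, which trims chains at the proteasome, differed by 0.14 and Usp5, which takes apart free chains, by -0.07. Of the rest, Usp25 differed by -0.33, Usp2, a protease that varies with the circadian clock, by -0.24, Usp39 by -0.20, Usp35 by 0.20 and Usp24 by 0.27, and Usp29, Usp40, Usp45, Usp47 and Usp53 lay between -0.11 and -0.02.

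Other genes of the relay gave 0 calls in limma as well. All 9 listed activating enzymes had unadjusted p-values above 0.05, with 3 higher and 6 lower. Among them Atg7, the activator of the autophagy modifiers, differed by 0.10, Nae1, a NEDD8 activator subunit, by -0.24 and Sae1, a SUMO activator subunit, by -0.39. Sae1 stood at -0.17 without KO 2 and at -0.13 without KO 2, KO 3 and WT 7, and Atg7 at 0.045 without WT 5. Of 11 listed genes for ubiquitin and its relatives, 3 were higher and 8 lower, with 1 unadjusted p under 0.05. That was Sumo3, which averaged 8.72 ± 0.66 (SD, n = 10) in KO and 9.26 ± 0.21 (SD, n = 8) in WT islets, a difference of -0.54 (limma unadjusted p = 0.0145, adjusted p = 0.897) that was -0.33 without KO 2, KO 3 and WT 7. Among 29 listed deubiquitinating enzymes of other families, 13 were higher and 16 lower, with Mindy2 at 0.38 and Otud7a at -0.83 as the 2 with an unadjusted p under 0.05. Mindy2 stood at 0.25 without KO 2, KO 3 and WT 7, where its unadjusted p was no longer under 0.05.

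Usp18 (chromosome 6, 121245906 to 121270917), the interferon-linked gene of the 67, was of low to middle level, with a mean of 3.18 that placed it 7065th in the table and 52nd of the 67. Its values were 4.47, 1.68, 3.07, 3.21, 3.46, 2.90, 3.48, 2.86, 4.15 and 4.41 in KO 1 to KO 10, from 7 to 81 reads, and 2.36, 2.72, 2.89, 3.43, 2.81, 2.82, 3.06 and 3.51 in WT 1 to WT 8, from 19 to 40 reads. KO 1, KO 9 and KO 10 stood above every WT library and KO 2 below every one, while the other 6 lay within the WT range. The means were 3.37 ± 0.84 (SD, n = 10) in KO and 2.95 ± 0.38 (SD, n = 8) in WT. The log2 difference was 0.42, SE 0.31, with -0.21 to 1.05 as its 95% interval (limma unadjusted p = 0.182, adjusted p = 0.945), and 14 of the other genes had a smaller p.

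The difference in Usp18 depended on which libraries were compared. It was 0.61 without KO 2 and 0.68 without KO 2, KO 3 and WT 7 (limma unadjusted p = 0.0199 in the last), with no gene of the 67 called in either. Within these runs of neighbouring animal numbers it was -0.17 and 0.18 with 2 KO and 2 WT libraries each, and 0.28 with 3 KO and 1 WT library. Outside these runs 3 KO libraries averaged 4.34 and 3 WT libraries 3.13, a difference of 1.21. KO 1 is among these KO libraries. Its animal number is longer than all the others, so where it belongs among the runs is unclear. With the run as a term over the 12 libraries it was 0.08. The labels do not say what the animal numbers stand for, and these runs are not a stated batch.

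Usp18 followed the other interferon-stimulated genes from library to library. The interferon score is the mean log2 value of 41 listed interferon-stimulated genes, which include neither Usp18 nor genes of the ISG15 route. It averaged 3.73 ± 0.58 (SD, n = 10) in KO islets, with a range of 2.93 to 4.48, and 3.31 ± 0.30 (SD, n = 8) in WT islets, with a range of 2.81 to 3.68. Without KO 2, KO 3 and WT 7 it averaged 3.93 ± 0.45 (SD, n = 8) in KO and 3.25 ± 0.28 (SD, n = 7) in WT islets. Over 18 libraries Usp18 correlated with the score at r = 0.70 (permutation p = 0.00132, adjusted 0.00462 over 7 relations) and rho = 0.66 (permutation p = 0.00332, adjusted 0.00815). Without KO 7 and KO 1, the libraries farthest from the median score, r was 0.66 over 16 libraries. Within KO islets r was 0.68 (permutation p = 0.0329, n = 10), and within WT islets 0.56 (exact permutation p = 0.149, n = 8). Runs of animal numbers hold at most 4 of these libraries and are too small for a value of their own.

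**Figure D4:**
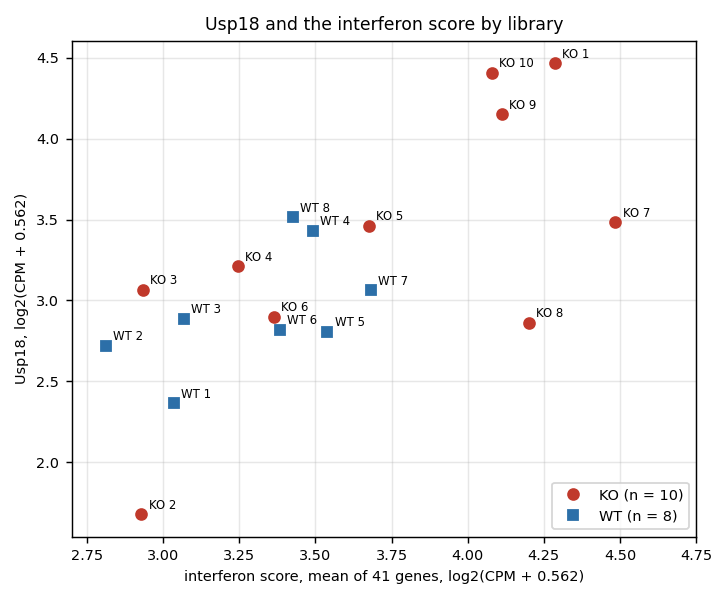
Usp18 (vertical axis) against the interferon score, the mean of 41 interferon-stimulated genes (horizontal axis), both on the log2(CPM + 0.562) scale, with KO islets as circles (n = 10) and WT islets as squares (n = 8). Libraries with a higher score tend to have more Usp18 (r = 0.70), with KO 2 at the low end and KO 1, KO 9 and KO 10 at the high end, while KO 7 and KO 8 have a high score with middling Usp18.

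Usp18 stood highest of the 67 genes in its correlation with the score. Next were Ube2g2 at 0.54, Usp27x at 0.54, Ube2l3 at 0.47 and Ube2f at 0.46, and the lowest was Usp5 at -0.59. The median over the 67 was 0.06, against 0.01 over all genes, and 3 of 67, or 4.48%, were above 0.5, against 2.95% of all genes. Across all genes, 37 had a higher r with the score than Usp18, of which 15 are part of the score. KO 7 and KO 8 had scores of 4.48 and 4.20 but Usp18 values of 3.48 and 2.86, and without them r was 0.85 over 16 libraries, a value that leaving out the libraries that depart from the relation raises by construction.

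The other genes of the ISG15 route did not share 1 pattern. Isg15, the modifier itself, ranged between 1.499 in KO 2 and 4.41 in KO 7 in KO islets and between 0.87 and 3.08 in WT islets, and 6 of 10 KO libraries exceeded the highest WT value. It averaged 3.26 ± 0.96 (SD, n = 10) in KO and 2.09 ± 0.73 (SD, n = 8) in WT, a log2 difference of 1.17 with an SE of 0.37 from 5 to 74 reads (limma unadjusted p = 0.00390, adjusted p = 0.797). Herc6, the mouse ligase for ISG15, differed by 0.30, and Trim25, an interferon-induced ligase that also takes ISG15, by -0.08. Herc6 stood at 0.16 without WT 1 and at 0.039 without KO 7 and KO 8, and Trim25 at 0.18 without KO 2, KO 3 and WT 7. Usp18 correlated with Isg15 at r = 0.64 (permutation p = 0.00388, adjusted 0.00905). Within KO islets this r was 0.73 (permutation p = 0.0187, n = 10), but within WT islets 0.17 (exact permutation p = 0.699, n = 8). With Trim25 r was 0.76 (permutation p = 0.000580, adjusted 0.00406), and 0.54 without KO 2 and KO 10. Within KO and WT islets it was 0.91 and 0.57. With Herc6 r was 0.26 (permutation p = 0.293, adjusted 0.342), and 0.14 and 0.42 within KO and WT islets.

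Interferon-stimulated genes of the score were themselves higher in KO islets in 37 of 41 cases, with a median difference of 0.31 against -0.00 over all genes, and limma called 0. A value above 0 was held by 49.6% of all genes. The 41 were measured in the same libraries and are not separate results. By run of animal numbers, KO 2 and KO 3 had scores of 2.93 each, against 3.04 and 2.81 in WT 1 and WT 2. KO 4 and KO 5 had 3.25 and 3.68, against 3.07 and 3.49 in WT 3 and WT 4. KO 6 to KO 8 had 3.36, 4.48 and 4.20, against 3.54 in WT 5. Outside the runs KO 1, KO 9 and KO 10 had 4.29, 4.11 and 4.08. WT 6, WT 7 and WT 8 had 3.38, 3.68 and 3.43. Of the 41, 9 had an unadjusted p under 0.05, all higher, where 3.18% of all genes did so in that direction. Other marker lists also differed between these groups: the 3 listed adipocyte markers, of 5, had a median difference of 0.78, with 2 unadjusted p under 0.05, and summed to 26.3 to 106 CPM in KO and 20.4 to 43.7 CPM in WT islets. The 5 listed alpha-cell markers, of 6, had a median difference of -0.62, with 2 unadjusted p under 0.05, and summed to 2059 to 9324 CPM in KO and 3876 to 11818 CPM in WT islets. None of either list was at 0 in any library, and their part in the interferon genes was not tested. Trim30a averaged 2.504 ± 0.71 (SD, n = 10) in KO and 0.78 ± 1.14 (SD, n = 8) in WT islets, a difference of 1.73, and the nucleic acid sensor Zbp1 averaged 1.35 ± 1.13 (SD, n = 10) in KO and -0.11 ± 0.78 (SD, n = 8) in WT, with 1.46 as the difference (limma adjusted p = 0.797 and 0.805). With the run as a term Zbp1 stood at 0.97 (limma unadjusted p = 0.136). Against them Usp18, with 0.42, lay above the median of the 41. The genes most like Usp18 over the 18 libraries were Poglut1 with r = 0.88, Hilpda with 0.87, the interferon-induced Rtp4 with 0.86, Kcnip1 with 0.82 and P4ha1 with 0.80, and without KO 2 these were 0.85, 0.82, 0.80, 0.74 and 0.69.

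Usp18 was also set against immune-cell RNA and library quality. The 11 listed macrophage markers, of 13, summed to 81.5 to 474 CPM in KO islets and 136 to 350 CPM in WT islets, with none at 0 in every library. Usp18 correlated with their mean log2 value at r = 0.50 (permutation p = 0.0373, adjusted 0.0522) and rho = 0.54 (permutation p = 0.0241, adjusted 0.0337). Without KO 9 and KO 1 r was 0.21. Within KO islets r was 0.58 (permutation p = 0.0725, n = 10), and within WT islets 0.50 (exact permutation p = 0.210, n = 8). The 7 endothelial markers summed to 311 to 504 CPM in KO and 293 to 450 CPM in WT islets, with r = 0.09 (permutation p = 0.711, adjusted 0.711), and only 1 of 8 lymphocyte markers was listed. Usp18 was lower in libraries with more genes at 0 reads, at r = -0.54 (permutation p = 0.0196, adjusted 0.0342) and rho = -0.70 (permutation p = 0.00180, adjusted 0.00815). Without WT 7 and KO 2 r was -0.46. Within KO islets r was -0.76 (permutation p = 0.0161, n = 10) and rho -0.79 (permutation p = 0.00900). Within WT islets r was -0.12 (exact permutation p = 0.830, n = 8) but rho -0.55 (exact permutation p = 0.171). The part of these measures in the values of Usp18 was not tested.

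Over all 67 genes and 18 libraries, co-variation was weak in the middle and stronger at both ends than in the table. Over 2211 pairs the median r across 18 libraries was 0.01, against -0.00 over all pairs of genes. Pairs above 0.5 made up 8.23%, against 4.88%, and pairs below -0.5 made up 6.74%, against 4.39%. Among Ube2 genes 20% of 325 pairs were above 0.5, with a median of 0.14, and among Usp genes 8.90% of 820 pairs were. Without KO 2 these shares were 14.5% and 7.44%, against 4.55% of all pairs. Without KO 2, KO 3 and WT 7 they were 8% and 7.93%, against 4.51%, and the families then hardly differed. Over all 67 genes 5.74% of pairs were then above 0.5, against 4.51%. Below -0.5 there were 5.11%, against 4.26%, so the excess at both ends was much smaller. Libraries share depth and scaling, and the pairs of all genes were not matched to the 67 for level. These shares are descriptions without a test.

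Named pairs show the pattern. Ube2e1 and Ube2j1 went together at r = 0.83, or 0.71 without KO 2, and Ube2h and Ube2v2 at 0.80, or 0.79. Among proteases the closest were Usp48 and Usp8, an endosomal protease, at 0.83, or 0.73 without KO 2, and Usp35 and Usp51 at 0.81, or 0.77. The most opposed pair was Ube2g1 and Usp7 at -0.90 with or without KO 2, followed by Ube2e1 and Usp48 at -0.82, or -0.69 without KO 2.

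A single library carried much of this shared variation. The first principal component of the 67 genes held 31.6% of their variance, against 17.3% for all genes, and KO 2 supplied 68.9% of it, against 34.5% in the component of all genes. Without KO 2 the first component held 24.7%, against 17.8% for all genes. Fewer genes by themselves give a first component a larger share, and no other set of 67 genes was compared. Values were not scaled to a common SD, so genes of large SD weigh more. On the component over 18 libraries, 12 of 26 Ube2 genes had r below -0.5 and 1 above 0.5, while Usp genes had 8 below -0.5 and 9 above 0.5. Its strongest genes were Ube2e1 at -0.89, Ube2f at -0.86, Usp48 at 0.85, Ube2j1 at -0.81 and Usp37 at -0.80.

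In KO 2, 29.9% of the 67 genes lay more than 1 log2 unit from their median over the other libraries, against 26.8% of all genes. Of these, 15 were low, 6 Ube2 and 9 Usp, and 5 were high, all Usp. WT 7 followed with 16.4%, against 20.6% of all genes, and KO 3 with 11.9%, against 17.1%. The mean of the Ube2 genes minus that of the Usp genes was -0.18 ± 0.27 (SD, n = 10) in KO and -0.11 ± 0.14 (SD, n = 8) in WT islets, lowest in KO 2 at -0.60. Without KO 2, KO 3 and WT 7 it was -0.10 ± 0.24 (SD, n = 8) in KO and -0.07 ± 0.09 (SD, n = 7) in WT, a difference smaller than the spread between libraries.

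**Figure D5:**
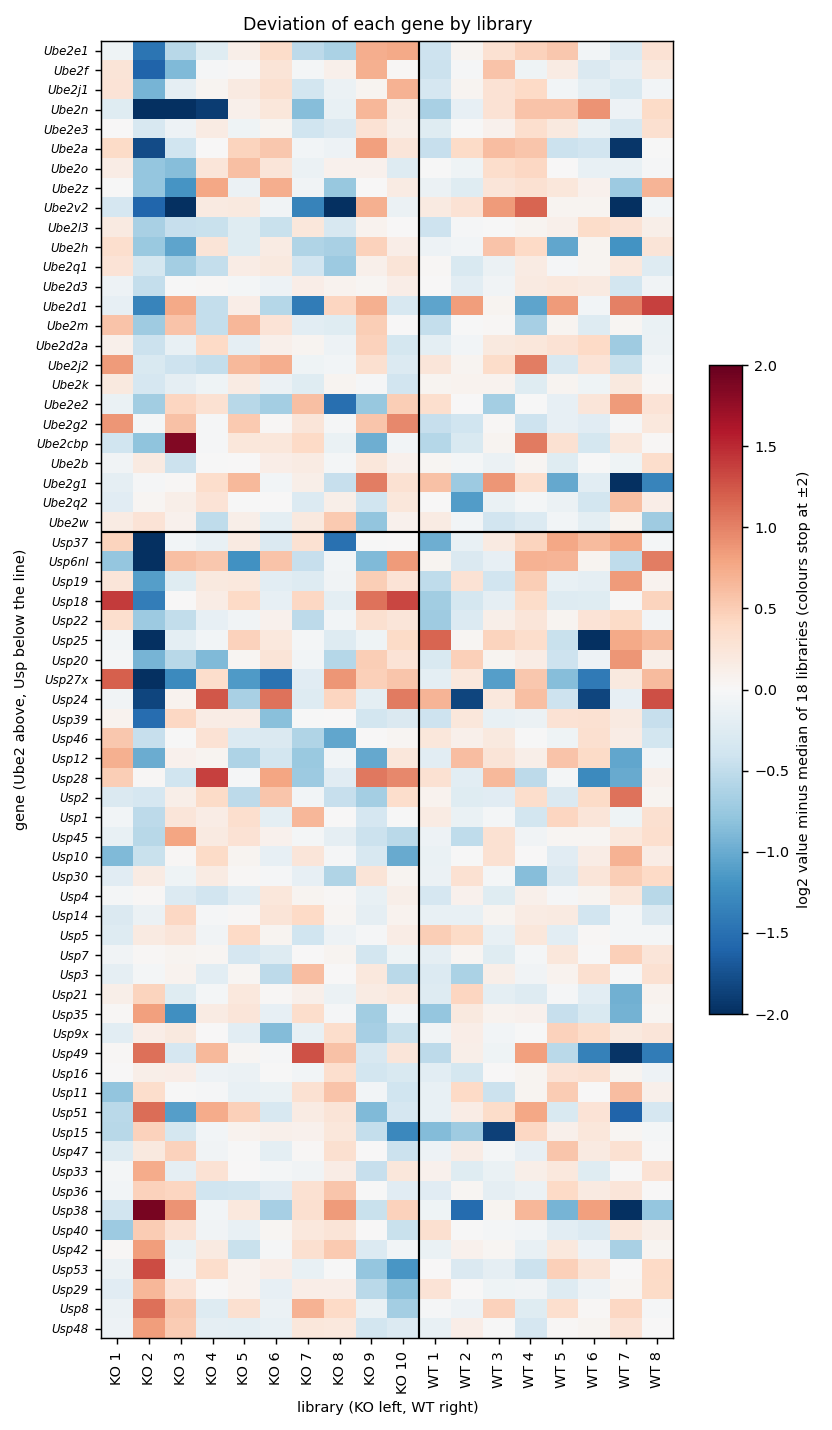
Log2 value of each of 66 genes minus its median over 18 libraries, KO libraries left of WT libraries, Ube2 genes above the line and Usp genes below, each ordered by correlation with the first principal component, and colours stopping at 2 either way. KO 2 is the column that departs most. Against the median of the other libraries, 15 of all 67 genes were more than 1 log2 unit low in it and 5 more than 1 high.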

How the data were processed

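Expression was deposited as log2 values, with 10509 genes as rows and the 18 samples as columns. Libraries were made with QuantSeq FWD, per the labels' protocols. GRCm38, edgeR, HTSeq 0.6.1 and STAR 2.5.2 are listed, per the submitters' processing notes. The sources used here give no annotation, strand setting or filter. The lowest value of each column was -0.83 (0.562 CPM). Above it, linear values were whole multiples of 1 read within 0.05 reads for 100% of values, so reads were recovered. Their sum over listed genes was taken as depth, and they cover counting error only. Differences on this scale understate changes of genes with few reads.

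Samples were grouped by genotype label and numbered in accession order. KO was compared with WT by limma 3.58.1 in R 4.3.3 (empirical Bayes with a mean-variance trend, two-sided) over all genes, with Benjamini-Hochberg adjustment and a threshold of 0.05. The fit was tested on simulated data. Correlations used numpy 2.4.6 and scipy 1.17.1, with 100000 permutations over samples, or all of them for 8 libraries, two-sided. Coordinates come from a RefSeq table of GRCm38, which held all 67 genes. Titles carry animal numbers, whose consecutive runs gave an alternative fit. Others were a stricter filter, 1 added before log2, median centring, quantile normalization, no trend, robust fits, sample weights, voom on recovered reads and leaving out libraries. Named genes were Usp18, the highest and lowest, the smallest p in each direction, the most variable, those most correlated with the interferon score, the first component or Usp18, and up to 4 of each pathway list; other members are named by role. A few genes that these rules name are counted but not reported here by name. Members, lists and tests were chosen with earlier results of these data known.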

Additional observations from a re-analysis of the deposited data

Results flagged for a closer look

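In 30 of the enzyme genes named above, each genotype was searched for a library far from the others. Of 64 groups searched, 6 were picked out, or 9.38%. The rate of about 1 in 20 by chance is no yardstick for this share. Some of these genes were named for their large spread or their correlation with the first component, and the groups share libraries. The 64 also include the interferon score and other summary values. KO 2 held 3 of the 6: Ube2d3 at 6.64, where the nearest KO library had 7.01, Usp37 at -0.83, where the nearest had 1.06, and Usp6nl at -0.09, where the nearest had 2.62. In KO 3, Ube2b was low at 5.76, where the nearest KO library had 6.13, and Ube2cbp was high at 3.42, where the nearest had 1.97. In WT 7, Ube2v2 had no read and stood at -0.83, where the nearest WT library had 1.45. These 3 libraries are those with the most genes at 0 reads, and the part of that in these values was not tested.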

How the results depend on the processing

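In each of 29 alternatives 0 of the 67 genes were called. The lowest adjusted p of any of them in any limma fit was 0.478, for Ube2e1 with the run of animal numbers as a term, where its log2 difference was -0.68. The number with an unadjusted p under 0.05 was 4, against 2 with only genes above log2 3 in at least 8 samples (7760 genes, 56 of the 67), where fewer genes were tested, and 1 to 7 when each library was left out in turn. It was lowest without WT 8 and highest without WT 1, and it was 2 without WT 5 and 2 without WT 6. Most directions were kept: 16 values turned round, as given next, and 1149 counted as the same. For a gene this meant the same direction and side of the adjusted p threshold, which no gene passed. An unadjusted p that crossed 0.05 was therefore not counted as a change. For the correlation it meant the same direction and side of 0.05 for the permutation p. Counts and medians were the same within a set tolerance, which took in 34 against 43 genes lower in KO islets.

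Xaf1 stood at -0.07 and at 0.13 with sample weights, 0.080 with voom, 0.45 without KO 2, KO 3 and WT 7, and -0.31 to 0.14 with each library left out. Trim25 stood at -0.08 and at 0.0710 with sample weights, 0.18 without those 3 libraries and -0.17 to 0.050 with each library left out. Eif2ak2 stood at -0.23 and at 0.085 without those 3 libraries. With the run as a term Usp10 was 0.037 and Ubl3 -0.069, against -0.33 and 0.24. The cause was not tested. The correlation of Usp18 with the interferon score was 0.64 to 0.85 over all alternatives, and leaving out KO 7 and KO 8, or taking deviations from genotype means (0.66), was chosen after seeing the data. Alternatives for Ube2l6 were not run, since the gene was not listed. No paired analysis was possible because the labels give no replicate numbers or pairing. Depth limits genes such as Usp49 and Ube2v2, at under 25 reads in every library.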
